A study of Mus musculus with 7 samples.

Results

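The amino acid and unfolded protein stress genes are a set of 47 genes, chosen by name, among the 23337 genes measured in each of 7 RNA-seq libraries of mouse bone marrow-derived macrophages. They form 2 arms that were analysed apart. The Atf4 arm has 30 genes: Atf4 and related factors, stress effectors, enzymes of serine, asparagine, proline and one-carbon synthesis, amino acid transporters and aminoacyl-tRNA synthetases. The reticulum stress arm has 17 genes: the sensors of the endoplasmic reticulum and Xbp1, folding and degradation genes of that compartment, and a subunit that recovers translation. In all, 46 of the 47 members passed the filter on low values, a mean of at least 1 TPM (transcripts of a gene per 1000000 transcripts) over the 7 libraries. The exception was Pycr1, a proline synthesis enzyme, at 0 to 0.372 TPM.

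Per the labels, the macrophages were grown from marrow of male mice aged 6 to 8 weeks, in 25 ng/ml M-CSF, the growth factor that turns marrow cells into macrophages, for 7 days. KO LPS (n = 2) and WT LPS (n = 2) were Tgm2 knockout and wild-type cells that then received 10 ng/ml LPS, a bacterial cell wall component, for 6 hours. KO M0 (n = 1) and WT M0 (n = 2) were knockout and wild-type cells left unstimulated. Tgm2 encodes transglutaminase 2, which cross-links proteins. The labels give neither strain nor allele, and do not say whether the replicates came from separate mice, so p-values measure only the spread between these libraries, which may be technical. The lone KO M0 library was assumed to vary like the other groups. TPM keep no sequencing depth, which is therefore unknown. Each log2 fold change below, and each fold, was computed from log2(TPM + 1). Changes of low genes are therefore understated, and folds differ from ratios of the printed TPM. Each log2 change carries a standard error (SE) and, where tested, a limma p adjusted by Benjamini-Hochberg for the 11096 genes that passed the filter. A gene is called, and said to rise, fall or pass, where that p is under 0.05. In such bulk RNA, fewer cells of a type and less RNA per cell cannot be told apart.

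Cells that run short of amino acids, or whose reticulum fills with unfolded protein, phosphorylate the initiation factor eIF2alpha. That lowers general translation but favours translation of Atf4, a transcription factor that switches on amino acid transporters, synthesis enzymes and tRNA synthetases. The reticulum has its own sensors: Ern1 (Ire1) splices the Xbp1 transcript into the form that encodes an active factor, Eif2ak3 (Perk) phosphorylates eIF2alpha, and Atf6 is cleaved to release a factor that induces chaperones. Much of this control acts on translation, splicing and cleavage, none of which a gene-level TPM records. In macrophages, LPS is known to raise amino acid uptake and serine use, and toll-like receptor signals are known to engage Ire1 and Xbp1.

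Tgm2 stood at 19.4 and 19.2 TPM in KO LPS, 233 and 199 TPM in WT LPS, 50.7 TPM in KO M0, and 433 and 368 TPM in WT M0, so each knockout library was below each wild-type library under the same treatment. All libraries were labelled male, yet Xist, which female cells express, measured 47.2 and 55.4 TPM in the WT LPS libraries, against at most 0.00535 TPM in the other 5. The Y-linked Eif2s3y, at 32.8 and 37.2 TPM there, was 66.1 to 78.3 TPM in those 5. Each comparison that uses WT LPS carries this difference, which cannot be told apart from the groups. The difference of KO LPS and KO M0 means does not use WT LPS, although those libraries enter its estimate of the spread. WT M0 replicate 2 lay nearer to KO M0 than to WT M0 replicate 1. The median absolute log2 differences were 0.0959 and 0.221. The larger one was close to the distance separating the KO LPS replicates (0.197) and that separating the WT LPS replicates (0.196). No pair of libraries differed by less than 0.0959. The macrophage markers fixed for the cells, 8 of 8 at 1 TPM or more, summed to at least 33944 TPM in every library. Of 7 neutrophil markers matched, 2 reached 1 TPM. The sum of the list, almost all of it S100a8, was 106 to 161 TPM in KO LPS, 208 to 333 TPM in WT LPS, 5.01 TPM in KO M0 and 7.97 to 8.48 TPM in WT M0. Stromal and endothelial markers, 7 of 8 of which reached 1 TPM, summed to 27.9 to 32.8 TPM in KO LPS, 22.0 to 23.7 TPM in WT LPS, 25.3 TPM in KO M0 and 32.4 to 45.1 TPM in WT M0. The LPS response genes fixed as a check summed to 10687 to 12389 TPM in KO LPS, 4917 to 7549 TPM in WT LPS, 558 TPM in KO M0 and 500.3 to 533 TPM in WT M0. Erythroid and megakaryocyte markers and mast cell and basophil markers each summed to under 1 TPM in every library. T and NK cell markers summed to at most 1.11 TPM, with Cd3g and Gzma at 0. B and plasma cell markers summed to at most 3.65 TPM, with Pax5 at 0. The neutrophil and LPS response sums move with LPS, and these and the stromal sum with genotype under LPS. The stromal sum was also lower in WT LPS than in WT M0. What part these sums have in the results below was not tested.

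The promoters of the arms were searched for the elements that Atf4 and the reticulum stress factors are known to bind. Of the members, 39 had a RefSeq promoter entry (GRCm38.p6), a window from 250 bases before to 50 after an annotated start. Some members had more than 1 such start. For some, such as Yars, Aars and Mthfd2, the start used lay inside the outermost bounds of the gene. A gene was counted if any of its windows held a match. TGATGNAA is the form searched here of the site that Atf4 and its partners bind. It occurred on either strand in 9 of 24 Atf4-arm genes (37.5%), 1 of 15 reticulum genes (6.67%) and 4.51% of the 27025 genes with an entry. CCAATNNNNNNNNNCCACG, the reticulum stress element bound by NF-Y and Atf6, occurred in 6 of 15 reticulum genes, 0 of 24 Atf4-arm genes and 0.137% of all. Its shorter second form (ERSE-II), also searched on both strands, occurred in 1 of 15 reticulum genes, Herpud1, and in 0.0444% of all. Matches to these letters are descriptions of sequence and are not measured binding. None overlapped another. The sequences below, printed 5′ to 3′ on the strand of the gene, are from members picked among those with a match, shown in capitals. Chac1 and Herpud1 are printed although neither was called between KO LPS and WT LPS. Atf4, Atf5, Psat1 and Xbp1, which were called there, had no match in their windows and are not printed. For Asns (chr6:7693210-7693429, minus strand) and Chac1 (chr2:119351022-119351241, plus strand) they are 220 bases upstream of the start, with TGATGNAA on one strand or the other. For Trib3 (chr2:152344028-152344057, minus strand) and Yars (chr4:129189895-129189924, plus strand) the match lay past the start and 30 bases around it are shown.
Asns: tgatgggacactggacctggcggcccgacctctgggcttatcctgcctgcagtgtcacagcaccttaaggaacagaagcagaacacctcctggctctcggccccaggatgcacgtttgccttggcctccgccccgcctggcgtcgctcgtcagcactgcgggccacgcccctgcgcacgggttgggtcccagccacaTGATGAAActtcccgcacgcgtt
Chac1: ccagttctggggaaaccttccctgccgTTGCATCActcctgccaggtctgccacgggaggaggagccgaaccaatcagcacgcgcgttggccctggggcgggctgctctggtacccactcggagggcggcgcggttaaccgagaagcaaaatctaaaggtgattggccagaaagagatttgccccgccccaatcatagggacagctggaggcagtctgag
Trib3: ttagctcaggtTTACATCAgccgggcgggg
Yars: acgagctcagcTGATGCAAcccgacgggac
The next are 220 bases upstream of reticulum members: Hspa5 (chr2:34771870-34772089, plus strand), Hsp90b1 (chr10:86705445-86705664, minus strand) and Pdia6 (chr12:17266369-17266588, plus strand) hold the longer element, which Hsp90b1 has on both strands. Herpud1 (chr8:94386209-94386428, plus strand) holds TGATGNAA, on the reverse strand, followed by the shorter element.
Hspa5: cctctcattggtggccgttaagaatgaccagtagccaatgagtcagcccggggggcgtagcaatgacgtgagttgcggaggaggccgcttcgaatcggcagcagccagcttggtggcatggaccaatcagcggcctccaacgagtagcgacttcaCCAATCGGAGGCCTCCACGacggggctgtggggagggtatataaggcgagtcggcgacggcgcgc
Hsp90b1: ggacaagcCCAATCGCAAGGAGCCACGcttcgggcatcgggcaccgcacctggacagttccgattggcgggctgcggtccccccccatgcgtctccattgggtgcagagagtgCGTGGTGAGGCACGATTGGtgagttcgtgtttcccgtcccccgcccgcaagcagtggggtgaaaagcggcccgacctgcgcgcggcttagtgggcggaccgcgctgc
Pdia6: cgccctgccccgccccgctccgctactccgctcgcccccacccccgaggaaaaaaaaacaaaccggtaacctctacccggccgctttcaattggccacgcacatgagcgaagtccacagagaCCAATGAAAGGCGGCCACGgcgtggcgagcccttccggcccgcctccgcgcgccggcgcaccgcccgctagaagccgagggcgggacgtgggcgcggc
Herpud1: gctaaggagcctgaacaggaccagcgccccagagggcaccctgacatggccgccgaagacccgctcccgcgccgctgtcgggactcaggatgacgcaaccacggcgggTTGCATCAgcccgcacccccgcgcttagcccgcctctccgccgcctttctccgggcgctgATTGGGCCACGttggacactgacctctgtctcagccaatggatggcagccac

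Under LPS the arms lay on opposite sides in knockout cells relative to wild type. In the Atf4 arm, 5 of 29 tested members were lower in KO LPS than in WT LPS (Atf5, Asns, Trib3, Atf4 and Yars) and 1 was higher (Psat1). In the reticulum arm, 5 of 17 were higher (Xbp1, Manf, Hspa5, Pdia6 and Hsp90b1) and 0 lower. Of all genes tested, 7.16% were called in this comparison, 4.59% higher and 2.58% lower. The median log2 fold change of the Atf4 arm was -0.45, with 25 of 29 members below 0, and that of the reticulum arm was 0.32, with 16 of 17 above 0, beside 0.03 over all genes.

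The calls differed in how far they rested on 1 library. Atf5 and Asns passed without any one of the 7. Psat1 was lost without KO LPS replicate 2 or WT LPS replicate 2, Yars without those or KO LPS replicate 1, and Xbp1 without KO LPS replicate 2 or either WT LPS library. Trib3, Hspa5, Pdia6 and Manf were each lost without any 1 of the 4 LPS libraries, and Hsp90b1 also without either WT M0 library. Atf4 was lost without KO LPS replicate 2 or any 1 of the WT LPS and WT M0 libraries. Without KO LPS replicate 2 the Atf4-arm count was 2 and without WT LPS replicate 2 it was 3. The reticulum count was 0 without KO LPS replicate 2 or either WT LPS library, and 1 without KO LPS replicate 1. It was 2 under median-ratio scaling and under quantile normalization, with the medians of both arms keeping their signs. With no filter on low values, where more genes are tested, the Atf4-arm count was 2 and the reticulum count 0.

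**Figure D1:**
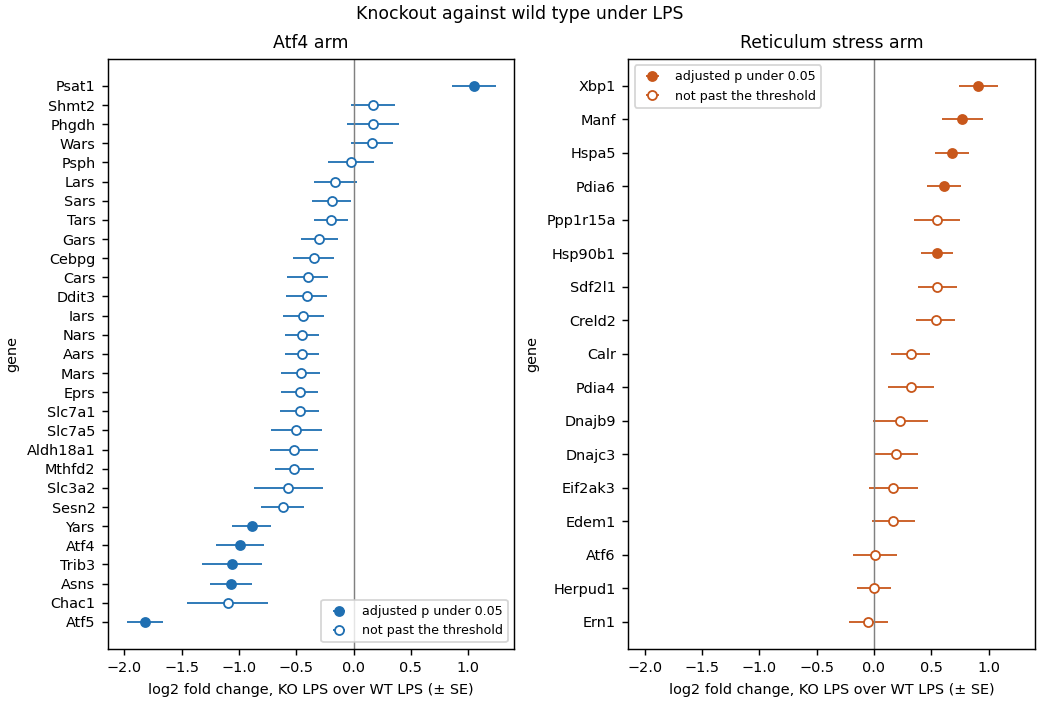
Log2 fold change of KO LPS over WT LPS (x axis, log2 scale of TPM + 1) for the 46 members tested, with bars of 1 SE, Atf4 arm and reticulum arm apart. Filled points passed an adjusted p of 0.05 (limma): 5 Atf4-arm genes lie left of 0 and Psat1 right of it, and 5 reticulum genes lie right of 0.

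Among the factors of the Atf4 arm, 3 of 5 were lower in KO LPS than in WT LPS, and these 3 (Atf4, Atf5 and Trib3) rose with LPS in wild-type cells. Of all genes, 2.58% were lower in KO LPS than in WT LPS and 15.0% rose with LPS in wild-type cells. Atf4 itself measured 255 and 158 TPM in KO LPS, 432 and 369 TPM in WT LPS, 239.7 TPM in KO M0, and 247 and 235 TPM in WT M0. Both WT LPS libraries were above every other library, while the KO LPS libraries fell on either side of the untreated ones. KO LPS was 1.98-fold lower than WT LPS (log2 -0.99, SE 0.21, limma adjusted p = 0.020). The change was log2 -0.25 (SE 0.26, adjusted p = 0.47) for KO LPS over KO M0. For WT LPS over WT M0 it was 0.73 (SE 0.21, adjusted p = 0.018). That call was lost without WT LPS replicate 1 or either WT M0 library, under quantile normalization, and with no filter on low values.

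Atf5, a leucine zipper factor related to Atf4, had the largest difference of any member between the LPS groups. It stood at 19.5 and 21.7 TPM in KO LPS, 80.7 and 70.5 TPM in WT LPS, 35.8 TPM in KO M0, and 42.0 and 42.5 TPM in WT M0. The KO LPS libraries were thus the lowest of the 7 and the WT LPS libraries the highest, with no overlap. It was 3.54-fold lower in KO LPS than in WT LPS (log2 -1.82, SE 0.16, limma adjusted p = 0.00016). With LPS it fell in knockout cells (log2 -0.77, SE 0.20, adjusted p = 0.012) and rose in wild-type cells (log2 0.82, SE 0.16, adjusted p = 0.0024). The fall was not called under median-ratio scaling (adjusted p = 0.071). Exons of Atf5 overlap those of Nup62 and Il4i1 on the opposite strand, and whether reads were counted by strand is not given. Il4i1, an amino acid oxidase, measured 12.0 and 34.6 TPM in KO LPS, 3.84 and 15.8 TPM in WT LPS and at most 0.951 TPM in M0 libraries, and Nup62, a nuclear pore protein, 45.2 to 65.6 TPM in all 7. How much of the Atf5 level is theirs was not tested.

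Trib3, a pseudokinase that restrains Atf4 signalling, was low in all groups. Its levels were 4.32 and 3.56 TPM in KO LPS, 10.1 and 8.43 TPM in WT LPS, 2.31 TPM in KO M0, and 3.40 and 1.74 TPM in WT M0. The LPS groups did not overlap, and KO LPS was 2.08-fold lower (log2 -1.06, SE 0.26, limma adjusted p = 0.034). That call was lost under median-ratio scaling, with a pseudocount of 0.1, and with no filter on low values. The LPS change of Trib3 was log2 0.57 in knockout cells (SE 0.32, adjusted p = 0.18) and log2 1.56 in wild-type cells (SE 0.26, adjusted p = 0.00070). Ddit3, which encodes the pro-death factor Chop, and Cebpg, a dimer partner of Atf4, were called in none of these comparisons. Ddit3 had 35.1 and 35.3 TPM in KO LPS, 47.04 and 47.33 TPM in WT LPS, 31.6 TPM in KO M0, and 40.1 and 29.3 TPM in WT M0. Its exons overlap those of Mars on the opposite strand.

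Both stress effectors rose with LPS in wild-type cells, where 15.0% of all genes rose. These calls were lost without WT LPS replicate 1 or WT M0 replicate 1, and for Chac1 also without WT M0 replicate 2. Chac1, which breaks down glutathione, had 2.64 and 2.21 TPM in KO LPS, 9.87 and 3.91 TPM in WT LPS, 1.14 TPM in KO M0, and 3.29 and 1.81 TPM in WT M0. Its 2 WT LPS libraries differed widely, and the fold change of KO LPS over WT LPS, log2 -1.10, did not pass (SE 0.35, limma adjusted p = 0.10). Sesn2, a leucine sensor that restrains mTORC1, rose in wild-type cells (log2 0.76, SE 0.19, adjusted p = 0.0083), and for KO LPS over WT LPS it had log2 -0.62 (SE 0.19, adjusted p = 0.087).

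The synthesis enzymes held the strongest LPS changes of the arm, and were not uniform between genotypes. Their summed level was 243 and 227 TPM in KO LPS, 299.9 and 274 TPM in WT LPS, 77.5 TPM in KO M0, and 67.6 and 67.4 TPM in WT M0. Asns, which makes asparagine from aspartate and glutamine, had 36.3 and 41.6 TPM in KO LPS, 92.2 and 74.4 TPM in WT LPS, 8.50 TPM in KO M0, and 8.21 and 7.61 TPM in WT M0. It was 4.20-fold higher in KO LPS than in KO M0 (log2 2.07, SE 0.22, limma adjusted p = 4.9e-05) and 9.41-fold higher in WT LPS than in WT M0 (log2 3.23, SE 0.18, adjusted p = 4.6e-07). Between the LPS groups, which did not overlap, it was 2.10-fold lower in KO LPS (log2 -1.07, SE 0.18, adjusted p = 0.0055). Without the filter on low values this p was 0.051.

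Psat1, the aminotransferase of serine synthesis, was the member of the arm that was higher in knockout cells. Its levels were 43.9 and 47.6 TPM in KO LPS, 22.3 and 20.8 TPM in WT LPS, 18.3 TPM in KO M0, and 11.2 and 15.5 TPM in WT M0. Every KO LPS value was above every other, and the ratio to WT LPS was 2.07-fold (log2 1.05, SE 0.19, limma adjusted p = 0.0085). It rose with LPS in both genotypes, by log2 1.27 in knockout cells (SE 0.24, adjusted p = 0.0019) and log2 0.67 in wild-type cells (SE 0.19, adjusted p = 0.017). The wild-type call was lost without WT LPS replicate 1 or WT M0 replicate 1.

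Phgdh, the dehydrogenase that starts serine synthesis, was not called between the LPS groups. It stood at 50.6 and 33.3 TPM in KO LPS, 33.9 and 39.2 TPM in WT LPS, 3.36 TPM in KO M0, and 2.42 and 1.94 TPM in WT M0. The LPS groups overlapped (log2 0.17, SE 0.23, limma adjusted p = 0.76), and both were far above their untreated cells, 9.66-fold in knockout (log2 3.27, SE 0.28, adjusted p = 9.8e-06) and 11.8-fold in wild type (log2 3.56, SE 0.23, adjusted p = 1e-06). Psph, the phosphatase that completes the pathway, was not called, at 4.27 to 7.24 TPM over all 7 libraries. Its exons overlap those of Cct6a on the opposite strand, which stood at 119 to 145 TPM, and how much of the Psph level is Cct6a was not tested.

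Mthfd2, of mitochondrial one-carbon metabolism, had 83.7 and 80.5 TPM in KO LPS, 126 and 111 TPM in WT LPS, 13.7 TPM in KO M0, and 14.5 and 11.5 TPM in WT M0. The LPS change was log2 2.50 in knockout cells (SE 0.21, limma adjusted p = 9.8e-06) and log2 3.10 in wild-type cells (SE 0.17, adjusted p = 4.6e-07). Its KO LPS libraries were below both WT LPS libraries, but the difference did not pass (log2 -0.52, SE 0.17, adjusted p = 0.12). Shmt2, which hands the one-carbon unit from serine to folate in the same compartment, lay between 13.2 and 22.6 TPM and was not called. Aldh18a1, which starts proline synthesis, was called only for WT LPS over WT M0 (log2 0.87, SE 0.21, adjusted p = 0.0060).

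The amino acid transporters rose with LPS in both genotypes, beside 13.8% of all genes in knockout and 15.0% in wild-type cells. Slc3a2, the heavy chain that carries several transporters to the membrane, had 470.5 and 241 TPM in KO LPS, 647 and 389 TPM in WT LPS, 140.5 TPM in KO M0, and 150.5 and 142 TPM in WT M0. Replicates of an LPS group differed by more than the groups did. The LPS change was log2 1.26 in knockout cells (SE 0.37, limma adjusted p = 0.021) and log2 1.77 in wild-type cells (SE 0.30, adjusted p = 0.00085). The knockout call was lost without KO LPS replicate 1 or either WT M0 library, under quantile normalization, and with no filter on low values. Slc7a5, its light chain for large neutral amino acids such as leucine, had 12.0 and 14.8 TPM in KO LPS, 22.3 and 16.5 TPM in WT LPS, 6.72 TPM in KO M0, and 5.69 and 7.50 TPM in WT M0, and its rise in knockout cells was lost without KO LPS replicate 2. Slc7a1, a carrier of arginine and other cationic amino acids, had 21.9 and 21.7 TPM in KO LPS, 32.8 and 28.6 TPM in WT LPS, 11.2 TPM in KO M0, and 11.7 and 12.3 TPM in WT M0. For both genes each KO LPS library was below each WT LPS library. Yet neither difference passed, at log2 -0.50 for Slc7a5 (SE 0.22, adjusted p = 0.25) and log2 -0.47 for Slc7a1 (SE 0.17, adjusted p = 0.16).

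Aminoacyl-tRNA synthetases, which load each tRNA with its amino acid, summed to 591 and 585 TPM in KO LPS, 744 and 758 TPM in WT LPS, 530.5 TPM in KO M0, and 475 and 528 TPM in WT M0. Of the 12, 3 rose with LPS in knockout cells: Wars (log2 0.70), Cars (0.66) and Aars (0.63), with limma adjusted p of 0.022 to 0.036, where 13.8% of all genes rose. All of these were lost without KO LPS replicate 1, Aars and Wars also without KO LPS replicate 2, and Cars also without either WT LPS library. In wild-type cells 7 rose: Yars, Cars, Aars, Gars, Mars, Tars and Eprs, with log2 fold changes of 0.61 to 1.24, where 15.0% of all genes rose. Eprs was lost without WT LPS replicate 2 or WT M0 replicate 1. Between the LPS groups, 11 of 12 had a fold change below 0, with a median of -0.42, but Yars alone passed. Of all genes, 2.58% were lower there. Yars, for tyrosine, measured 19.5 and 19.9 TPM in KO LPS, 37.0 and 37.5 TPM in WT LPS, 13.8 TPM in KO M0, and 15.1 and 15.2 TPM in WT M0. Replicates differed by less than 1 TPM, and KO LPS was log2 -0.89 relative to WT LPS (SE 0.17, adjusted p = 0.0094). Exons of Yars overlap C77080 on the opposite strand, at 6.08 and 4.74 TPM in KO LPS, 11.2 and 10.6 TPM in WT LPS and 33.6 to 37.5 TPM in M0 libraries. C77080 was thus lower in KO LPS than in WT LPS, as Yars was, and lower in LPS than in M0 libraries, whereas Yars was higher. Aars, for alanine, had 58.8 and 58.9 TPM in KO LPS, 81.2 and 80.0 TPM in WT LPS, 37.6 TPM in KO M0, and 35.6 and 37.8 TPM in WT M0. Nars and Sars had the smallest LPS changes in wild-type cells, at log2 0.05 and 0.01.

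**Figure D2:**
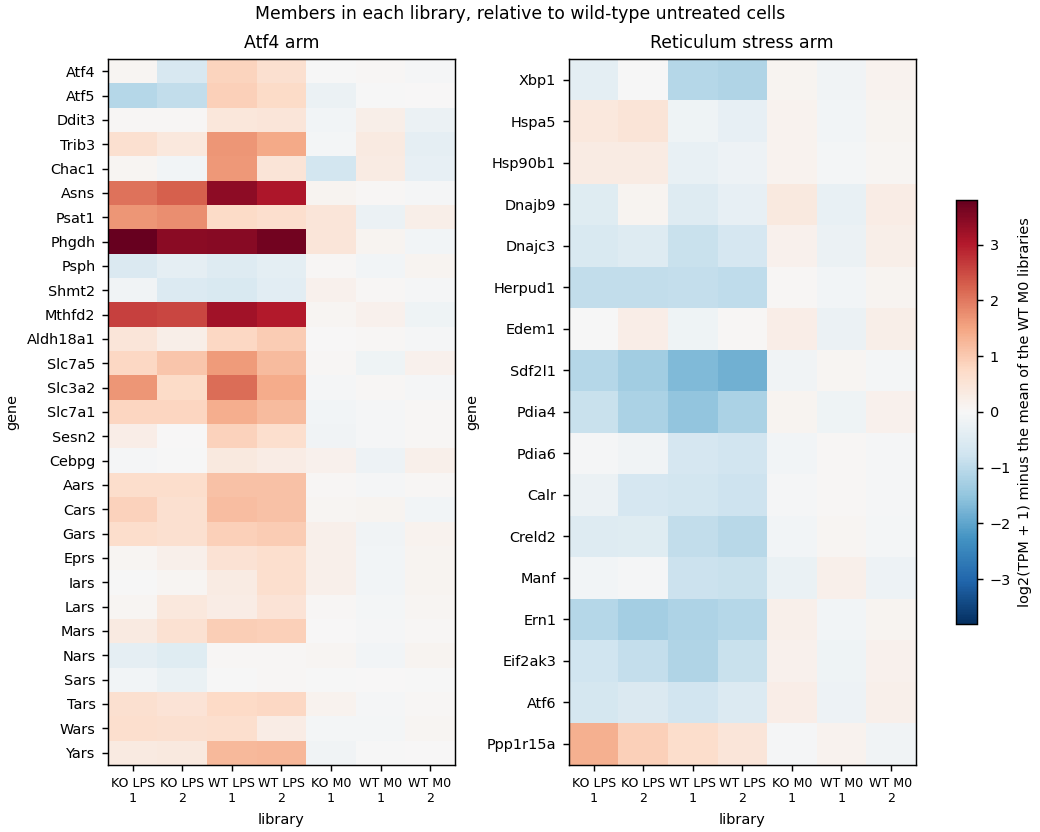
Level of each tested member in each library as log2(TPM + 1) minus the WT M0 mean (colour), genes in rows with the arms apart and the 7 libraries in columns. Asns, Phgdh and Mthfd2 are high in all 4 LPS libraries, and much of the reticulum arm is low in the WT LPS libraries.

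With LPS, more Atf4-arm members rose than fell, and more reticulum members fell than rose, in both genotypes. In knockout cells 10 of 29 Atf4-arm members rose and 1 fell (Atf5), and 1 of 17 reticulum members rose and 7 fell. Of all genes there, 13.8% rose and 24.3% fell, 38.1% in either direction. In wild-type cells 20 Atf4-arm members rose and 0 fell, and 1 reticulum member rose and 12 fell. Of all genes there, 15.0% rose and 29.6% fell, 44.6% in either direction. The median of all genes was itself -0.24 in knockout and -0.21 in wild-type cells. Median-ratio scaling brought these to -0.01 and 0.01 and gave 25 Atf4-arm genes higher and 10 reticulum genes lower in wild-type cells. In knockout cells it gave 14 Atf4-arm genes higher and 0 lower, and 2 reticulum genes higher and 6 lower. Relative to all genes, the Atf4-arm median was 0.67 higher in knockout and 1.03 higher in wild-type cells. The reticulum median was 0.15 lower in knockout and 0.54 lower in wild-type cells.

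Ern1, Eif2ak3 and Atf6, the sensors, fell with LPS in both genotypes and did not pass between the LPS groups. The shares of all genes that fell with LPS were 24.3% in knockout and 29.6% in wild-type cells. Ern1 had 21.9 and 18.7 TPM in KO LPS, 20.3 and 21.6 TPM in WT LPS, 54.0 TPM in KO M0, and 44.3 and 50.4 TPM in WT M0. Eif2ak3 had 8.78 and 7.82 TPM in KO LPS, 6.42 and 8.20 TPM in WT LPS, 17.2 TPM in KO M0, and 13.7 and 17.2 TPM in WT M0. Atf6 had 22.1 and 24.5 TPM in KO LPS, 21.3 and 24.9 TPM in WT LPS, 43.0 TPM in KO M0, and 31.6 and 41.2 TPM in WT M0. For each, every LPS library was below every M0 library, while the LPS groups overlapped. No share of all genes is given for that separation. The LPS change of Ern1 was log2 -1.37 in knockout cells (SE 0.21, limma adjusted p = 0.00056) and log2 -1.14 in wild-type cells (SE 0.17, adjusted p = 0.00041). For Eif2ak3 it was -0.97 (SE 0.25, adjusted p = 0.012) in knockout cells, lost without KO LPS replicate 2, and -0.99 (SE 0.21, adjusted p = 0.0029) in wild-type cells. For Atf6 it was -0.86 (SE 0.23, adjusted p = 0.015) in knockout cells, lost without KO LPS replicate 1, and -0.63 (SE 0.19, adjusted p = 0.021) in wild-type cells, lost under median-ratio scaling and without WT LPS replicate 1 or WT M0 replicate 2.

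Xbp1, the transcript that Ern1 splices, differed between the genotypes under LPS. It measured 169.7 and 217 TPM in KO LPS, 104 and 99.6 TPM in WT LPS, 238 TPM in KO M0, and 203 and 241 TPM in WT M0. The WT LPS libraries were the lowest, and the KO LPS range reached into that of the untreated libraries. It was 1.88-fold higher in KO LPS than in WT LPS (log2 0.91, SE 0.17, limma adjusted p = 0.0096). Its LPS change in knockout cells was log2 -0.31 (SE 0.21, adjusted p = 0.28), and in wild-type cells it fell by 1.11 on the log2 scale (SE 0.17, adjusted p = 0.00045). These are levels of the whole transcript, spliced or not.

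The 10 folding genes summed to 2063 and 1988 TPM in KO LPS, 1426 and 1375 TPM in WT LPS, 2089 TPM in KO M0, and 1979 and 2082 TPM in WT M0. The WT LPS sums were below the other 5 libraries, among which the KO LPS sums were not set apart. All 10 had a positive fold change of KO LPS over WT LPS, with a median of log2 0.54, and 4 passed. Of all genes, 4.59% were higher there. With LPS 3 of the 10 fell in knockout cells, where 24.3% of all genes fell, and 7 in wild-type cells, where 29.6% did. The knockout count is near that background.

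Hspa5 (BiP), the main Hsp70 chaperone of the reticulum, had 753 and 809 TPM in KO LPS, 512 and 465 TPM in WT LPS, 626 TPM in KO M0, and 529.5 and 619 TPM in WT M0. Hsp90b1, its Hsp90 counterpart, had 394 and 399 TPM in KO LPS, 262 and 279 TPM in WT LPS, 351 TPM in KO M0, and 306 and 335 TPM in WT M0. For both genes the KO LPS libraries were the highest and the WT LPS libraries the lowest. The differences were log2 0.68 (SE 0.15, limma adjusted p = 0.025) for Hspa5 and log2 0.55 (SE 0.14, adjusted p = 0.048) for Hsp90b1, whereas neither passed for LPS over M0 in either genotype.

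Pdia6, a disulfide isomerase, had 146 and 137 TPM in KO LPS, 95.8 and 89.2 TPM in WT LPS, 139 TPM in KO M0, and 154 and 146 TPM in WT M0. Manf, a secreted factor of the reticulum that protects cells under stress, had 48.0 and 50.1 TPM in KO LPS, 28.5 and 28.1 TPM in WT LPS, 42.9 TPM in KO M0, and 59.3 and 44.3 TPM in WT M0. For both genes the WT LPS libraries alone were low. KO LPS was above WT LPS by log2 0.61 for Pdia6 (SE 0.15, limma adjusted p = 0.033) and log2 0.77 for Manf (SE 0.18, adjusted p = 0.029). KO LPS over KO M0 was log2 0.03 for Pdia6 and 0.19 for Manf, which did not pass. WT LPS over WT M0 was log2 -0.69 for Pdia6 (SE 0.15, adjusted p = 0.0035) and log2 -0.83 for Manf (SE 0.18, adjusted p = 0.0036). Exons of Manf overlap Rbm15b on the same strand, at 9.91 to 22.0 TPM over the libraries.

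**Figure D3:**
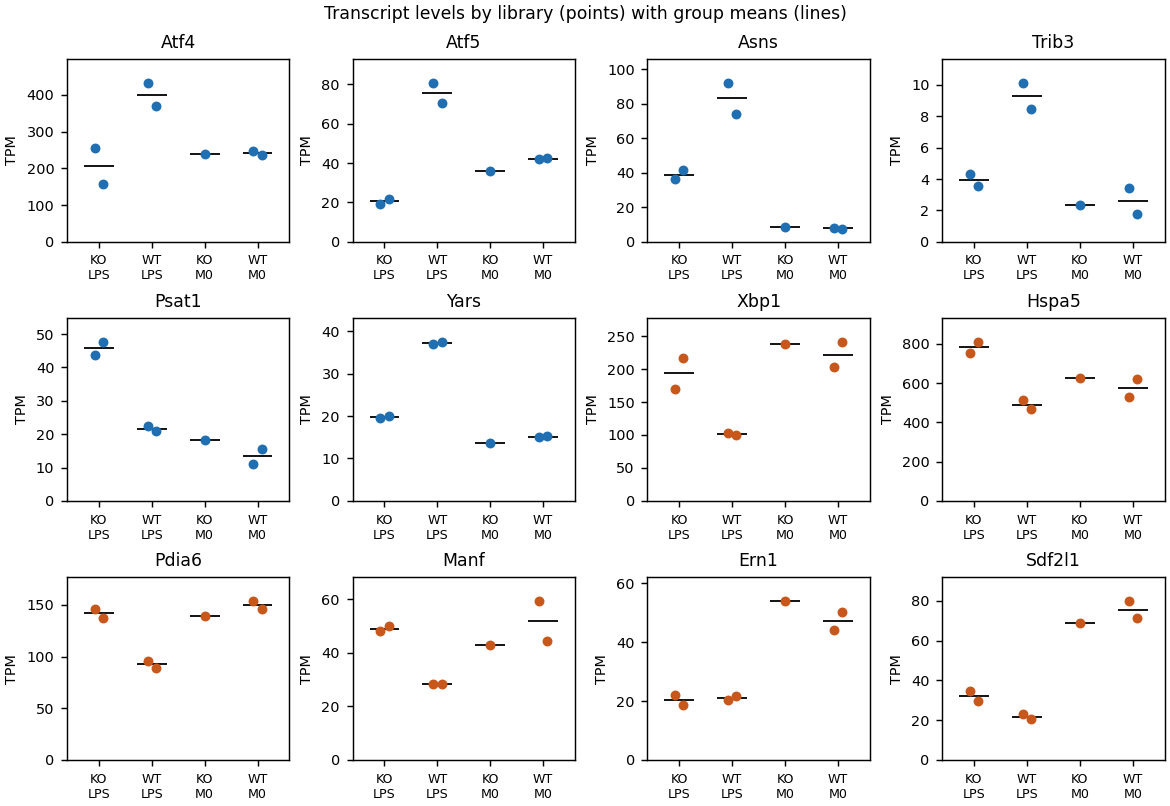
TPM of 12 members by group (points are libraries, bars group means; 1 library in KO M0), each panel with its own linear axis. Atf4, Atf5, Asns, Trib3 and Yars are highest in WT LPS, whereas Xbp1, Hspa5, Pdia6 and Manf are lowest there.

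Sdf2l1, a partner of the BiP system, and Pdia4, a further disulfide isomerase, fell with LPS in both genotypes. Sdf2l1 had 34.8 and 29.6 TPM in KO LPS, 23.1 and 20.4 TPM in WT LPS, 68.7 TPM in KO M0, and 79.9 and 71.1 TPM in WT M0. Its LPS change was log2 -1.08 in knockout cells (SE 0.21, limma adjusted p = 0.0024) and log2 -1.75 in wild-type cells (SE 0.17, adjusted p = 1.8e-05). Each KO LPS library was above each WT LPS library, a difference that did not pass (log2 0.55, SE 0.17, adjusted p = 0.093). Pdia4 had 35.0 and 27.2 TPM in KO LPS, 22.1 and 27.3 TPM in WT LPS, 69.2 TPM in KO M0, and 56.9 and 72.3 TPM in WT M0, with overlapping LPS groups.

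Creld2, a stress-induced reticulum protein, had 27.0 and 27.5 TPM in KO LPS, 19.3 and 17.7 TPM in WT LPS, 35.0 TPM in KO M0, and 40.4 and 35.6 TPM in WT M0. It fell with LPS in wild-type cells (to 0.4998 of its WT M0 level, SE 0.17 on the log2 scale, limma adjusted p = 0.00077), as did Calr (calreticulin, a lectin chaperone; log2 -0.75, adjusted p = 0.0047, lost under median-ratio scaling at 0.054). Dnajc3, a co-chaperone of BiP, had 37.8 and 40.3 TPM in KO LPS, 31.7 and 36.8 TPM in WT LPS, 64.1 TPM in KO M0, and 49.1 and 67.1 TPM in WT M0. It fell in both genotypes, by 0.70 in knockout cells (adjusted p = 0.035) and 0.73 in wild-type cells (adjusted p = 0.0097) on the log2 scale. In knockout cells that call was lost without either KO LPS library, and in wild-type cells without WT LPS replicate 1 or WT M0 replicate 2. The knockout call was also lost under median-ratio scaling and with no filter on low values. Dnajb9, another co-chaperone, was not called, at 35.4 to 65.6 TPM.

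Of the degradation genes, Herpud1, which helps build the complex that exports misfolded proteins, fell with LPS in both genotypes to almost the same level. It had 62.2 and 62.3 TPM in KO LPS, 63.6 and 60.8 TPM in WT LPS, 125 TPM in KO M0, and 112 and 129.7 TPM in WT M0. The LPS change was log2 -0.99 in knockout cells (SE 0.19, limma adjusted p = 0.0022) and log2 -0.95 in wild-type cells (SE 0.15, adjusted p = 0.00064). KO LPS over WT LPS was 0.00 (SE 0.15). Edem1, a mannosidase-like protein that marks glycoproteins for degradation, was not called, at 91.7 to 128 TPM.

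Ppp1r15a (Gadd34), the subunit that directs a phosphatase to eIF2alpha and so restores translation, was the reticulum member that rose with LPS. It had 78.1 and 57.4 TPM in KO LPS, 49.1 and 41.9 TPM in WT LPS, 29.3 TPM in KO M0, and 33.2 and 27.6 TPM in WT M0. Both KO LPS libraries were above both WT LPS libraries, without passing (log2 0.55, SE 0.20, limma adjusted p = 0.14). The LPS change was log2 1.16 in knockout cells (SE 0.24, adjusted p = 0.0035) and log2 0.57 in wild-type cells (SE 0.20, adjusted p = 0.038). The wild-type call was lost without any 1 of its 4 libraries.

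**Figure D4:**
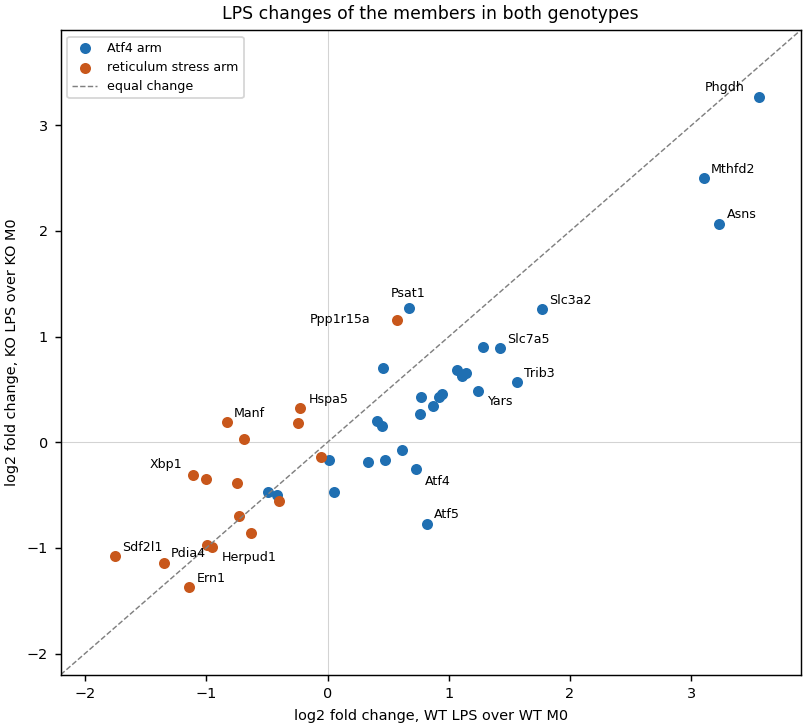
Log2 fold change with LPS of each tested member in wild-type cells (x axis, WT LPS over WT M0) and in knockout cells (y axis, KO LPS over KO M0), both on the log2(TPM + 1) scale, with the line of equal change. The axes share no library. Atf5 lies right of 0 on the x axis and below 0 on the y axis, and Phgdh, Asns and Mthfd2 lie at the top right.

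Whether LPS acted differently by genotype was tested directly as the change in knockout cells minus that in wild-type cells. In the Atf4 arm 1 of 29 members passed, and in the reticulum arm 0 of 17, beside 1.37% of all genes tested (0.847% with a higher change in knockout cells and 0.523% with a lower one). Atf5 was the one, at log2 -1.59 (SE 0.26, limma adjusted p = 0.019), and it was lost without KO LPS replicate 1, WT LPS replicate 1 or either WT M0 library. At an unadjusted p under 0.05 there were 6 members of the Atf4 arm, all with a negative difference (Atf5, Asns, Atf4, Yars, Eprs and Trib3). There were likewise 6 of the reticulum arm, all positive (Manf, Pdia6, Xbp1, Sdf2l1, Creld2 and Hspa5), and 1160 of all 11096 genes. The adjusted p nearest the threshold among the others was 0.097 for Asns, at log2 -1.17 (SE 0.29).

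Without LPS, 0 members of either arm differed between KO M0 and WT M0 in limma, and 0 did at an unadjusted p under 0.05. Tgm2 was the only gene of all called there (0.00901%), and 154 genes had an unadjusted p under 0.05. The median log2 fold change was 0.04 in the Atf4 arm and 0.11 in the reticulum arm, beside 0.06 over all genes. KO M0 was 1 library, so differences of the size seen under LPS might not pass here: the SE of Atf4 in this comparison was 0.26 and that of Xbp1 0.21.

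The members whose promoters hold the searched elements can be set beside those that do not, as a description. In KO LPS over WT LPS, the 8 tested Atf4-arm genes with TGATGNAA had a median log2 fold change of -0.67 and the 15 without it -0.47. The ranges overlapped, at -1.10 to -0.20 with it and -1.82 to 1.05 without it. For KO LPS over KO M0 the medians were 0.53 with it and 0.15 without it, and for WT LPS over WT M0 1.09 with it and 0.73 without it. In the reticulum arm the 6 genes with the longer element had a median of 0.54 for KO LPS over WT LPS and the 9 without it 0.23. These ranges overlapped too, at 0.19 to 0.68 with it and -0.05 to 0.91 without it. All genes with the element were folding genes, a set whose own median was 0.54. Those without the element also included sensors, degradation genes and Ppp1r15a. For KO LPS over KO M0 the medians were -0.16 with it and -0.97 without it, and for WT LPS over WT M0 -0.71 with it and -0.99 without it. Atf5, Psat1, Phgdh and Mthfd2 have no TGATGNAA in their windows of the RefSeq table, and Xbp1 has none of the reticulum elements. This says only that these letters are not in those windows, and that of Mthfd2 lies inside the gene.

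Genes of the same pathways outside the members were described from 10 lists of 200 genes in all. Of 23 tested further Atf4-pathway genes, 3 were lower in KO LPS than in WT LPS and 0 higher. Of all genes, 2.58% were lower and 4.59% higher. The median log2 fold change of the list was -0.30, beside 0.03 over all genes. Slc6a9, a glycine transporter, had 7.89 and 3.72 TPM in KO LPS, 18.1 and 15.8 TPM in WT LPS, 0.385 TPM in KO M0, and 0.708 and 1.41 TPM in WT M0, and was lower by log2 -1.47 (SE 0.30, limma adjusted p = 0.016). Pck2, a mitochondrial enzyme of gluconeogenesis, was lower by log2 -0.85 (adjusted p = 0.034), and Rhbdd1, a rhomboid protease of the reticulum, by log2 -0.69 (adjusted p = 0.046). With LPS, 6 of the 23 rose and 5 fell in knockout cells, beside 13.8% and 24.3% of all genes. In wild-type cells 11 rose and 5 fell, beside 15.0% and 29.6%. Vegfa and Got1 were among those that fell in both genotypes. Their LPS changes were log2 -3.70 and -3.46 in knockout cells, and -3.24 and -3.15 in wild-type cells. Slc7a11, the cystine importer, had the smallest p of the list for WT LPS over WT M0 (log2 4.76). It stood at 262 and 272 TPM in KO LPS, 365 and 388 TPM in WT LPS, 13.9 TPM in KO M0, and 12.0 and 13.9 TPM in WT M0. It did not pass between the LPS groups (log2 -0.49, SE 0.16, adjusted p = 0.093).

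Of 11 other cytosolic synthetases and scaffold genes, 1 rose and 1 fell with LPS in each genotype, beside 13.8% and 24.3% of all genes in knockout and 15.0% and 29.6% in wild-type cells. Between the LPS groups 0 passed in limma (median log2 0.02), and 1 did at an unadjusted p under 0.05. Of all 11096 genes tested, 2215 had an unadjusted p under 0.05 there. Of 17 mitochondrial synthetases, 3 fell in knockout cells, beside 24.3% of all genes, and 6 in wild-type cells, beside 29.6%, and 0 rose, so the shares that fell are near the background. Between the LPS groups 0 of these passed in limma, and 0 at an unadjusted p under 0.05. Among 15 kinases and other regulators of eIF2alpha and subunits of eIF2 and eIF2B, 0 passed between the LPS groups in limma and 2 at an unadjusted p under 0.05. Eif2ak2, the interferon-induced kinase that senses double-stranded RNA, rose by log2 2.37 in knockout cells and 2.17 in wild-type cells. Among 20 further genes of one-carbon and proline metabolism, 1 was higher (Tyms, which makes thymidylate, log2 1.51) and 2 lower (Glul and Prodh) in KO LPS than in WT LPS. Of all genes, 4.59% were higher and 2.58% lower, so the count of higher genes is near that background. Glul, which makes glutamine, had 37.5 and 34.5 TPM in KO LPS, 68.7 and 89.5 TPM in WT LPS, 393 TPM in KO M0, and 379 and 401 TPM in WT M0 (KO LPS over WT LPS log2 -1.10, SE 0.17, limma adjusted p = 0.0030).

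On the reticulum side, 4 of 22 further chaperones and folding enzymes were higher in KO LPS than in WT LPS and 0 lower (median log2 0.18). Of all genes, 4.59% were higher and 2.58% lower (median log2 0.03). The called genes included Prdx4, a peroxiredoxin of the reticulum, at log2 0.73, and Pdia5, a disulfide isomerase, at 1.13. The others were Hyou1, which recharges BiP with nucleotide, at 0.72, and Txndc11, a thioredoxin-domain protein, at 0.71. Hyou1 had 58.0 and 58.0 TPM in KO LPS, 34.1 and 35.7 TPM in WT LPS, 60.2 TPM in KO M0, and 55.1 and 62.6 TPM in WT M0, so that, as with Pdia6 and Manf, the WT LPS libraries alone were low. With LPS, 2 of the 22 rose and 2 fell in knockout cells, beside 13.8% and 24.3% of all genes, and 1 rose and 11 fell in wild-type cells, beside 15.0% and 29.6%. Of 27 translocon and secretory-entry genes, 3 were higher in KO LPS (Ssr2, Sec11c and Rpn1, log2 0.57 to 0.74) and 0 lower, with 24 of 27 above 0. In that list 1 rose and 1 fell with LPS in knockout cells, and 2 rose and 11 fell in wild-type cells, against the same shares of all genes. Of 20 degradation genes and 13 cytosolic heat shock genes, 0 passed between the LPS groups in limma. At an unadjusted p under 0.05 there were 0 and 1 of them, beside 2215 of all 11096 genes. Of the 14 further stress sensors and proteases 1 was lower (Bcl2l11, a pro-death Bcl2 relative, log2 -0.82) and 0 higher. Of the 14 calls that these lists gave between the LPS groups, Tyms and Glul passed without any one library, and the other 12 were each lost without KO LPS replicate 2 and without WT LPS replicate 2.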

How the data were processed

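RNA-seq was done on 7 libraries of bone marrow-derived macrophages. The authors deposited 1 table per library of TPM for 23337 genes, each summing to 1000000. Per the submitters' processing notes the build was mm10. Neither aligner, counter, annotation nor use of strand was stated in the labels or the files. TPM keep no depth, so no counting interval is given.

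Genes with a mean of at least 1 TPM over the libraries were kept (11096). Group means of log2(TPM + 1) were estimated in limma (version 3.58.1; R version 4.3.3) from the 7 libraries together. Gene variances were shrunk towards a trend on the mean, with 3 residual and 7.3 prior degrees of freedom. Tests were two-sided, with p-values adjusted by Benjamini-Hochberg across all genes kept, in 5 comparisons. The fit was tested on simulated data. Groups come from sample titles.

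The members and lists were chosen with earlier results of these data known. Members described library by library were those past the threshold between the LPS groups or in the difference of LPS changes, up to 8 per arm in each LPS comparison, and the pathway heads. From each list, up to 4 genes with the smallest p were eligible in each of KO LPS over WT LPS and WT LPS over WT M0. Exon overlaps were looked up in GENCODE M21: 12 of 47 members overlap an exon of another gene in the tables. Alternatives were scaling, pseudocount, filter, threshold, each library left out, the compared groups alone, the WT LPS libraries left out, and a replicate block.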

Additional observations from a re-analysis of the deposited data

Results flagged for a closer look

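The LPS change of Atf5 differed between the genotypes in the direct test: the change in knockout cells minus that in wild-type cells was log2 -1.59 (SE 0.26, limma adjusted p = 0.019). Atf5 was at 19.5 and 21.7 TPM in KO LPS and 35.8 TPM in KO M0, and at 80.7 and 70.5 TPM in WT LPS and 42.0 and 42.5 TPM in WT M0. Over the alternatives that could be fitted the value lay between -1.69 and -1.49 and the adjusted p between 0.015 and 0.11. The test uses the WT LPS libraries, which differ from the rest in Xist, and the part of that difference cannot be told apart. No group had enough libraries to look for a single outlying one.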

How the results depend on the processing

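No member that was called changed sign under any alternative: of the alternative values of single members, 3036 kept their side of the threshold, 137 lost it and 37 gained it. Between KO LPS and WT LPS, the 6 calls of the Atf4 arm became 2 with no filter on low values and 2 to 6 with 1 library left out. The 5 of the reticulum arm became 2 under median-ratio scaling, 2 under quantile normalization, 0 with no filter, 1 at an adjusted p of 0.01, 8 with the replicate block and 0 to 5 with 1 library left out. For KO LPS over KO M0, the 11 Atf4-arm calls became 5 at an adjusted p of 0.01 and 7 to 10 with 1 library left out, and the 8 reticulum calls became 5 and 6 to 8. These ranges leave out 1 of 6 libraries in turn: the lone KO M0 library, on which the comparison rests, cannot be left out of it. Without both WT LPS libraries these counts were 10 and 8. For WT LPS over WT M0, leaving out 1 library gave 16 to 20 Atf4-arm and 10 to 13 reticulum calls. The single Atf4-arm call for the difference of LPS changes became 0 with no filter, 0 at an adjusted p of 0.01 and 0 to 1 with 1 library left out. The cause of these shifts was not tested. Same-numbered libraries did not deviate together throughout (r of the replicate differences across 11096 genes 0.181, 0.298 and 0.0804), so the numbers were not read as pairs. With the replicate block, KO M0 left out, the Atf4 arm had 9 calls between the LPS groups. TPM keep no depth, so what depth limits cannot be said.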
